A study of Mus musculus with 6 samples.

Results

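The genes described here encode the synaptic vesicle and release machinery of neurons, a list of 44 synaptotagmins, SNARE proteins, vesicle proteins and active zone proteins. A gene was taken as measured where a value of the array table was annotated to it and to no other gene, which held for 43 of the 44, out of 19938 genes with such a value. Vamp2, the main vesicle SNARE of the brain, shares its only value with Ubr3 and was not analysed here. RNA of entire mouse brains, taken at embryonic day 16.5 (E16.5), was read on 6 arrays of the Affymetrix Mouse Gene 1.0 ST design. The dissection took in the olfactory bulb, the forebrain, the midbrain, the hindbrain and the brain stem. Of the brains, 3 were Tdp2Δ1-3 and 3 were wild-type. The mutant lacks exons 1 to 3 of Tdp2, which encodes the phosphodiesterase that frees the 5′ ends of DNA from trapped topoisomerase II peptide. No treatment was applied, the labels name neither strain nor sex, and they give no restriction of the deletion to a cell type.

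Neurons store transmitter in small vesicles that dock and are primed at the active zone of the presynaptic terminal. The vesicle SNARE synaptobrevin pairs with syntaxin and SNAP-25 of the plasma membrane, and a synaptotagmin that senses calcium triggers fusion within the zipped complex. Synapsins hold the reserve of vesicles, the large scaffolds of the active zone bring vesicles and calcium channels together, and clathrin and dynamin recover the membrane. At this embryonic stage many neurons of the mouse brain have only just been born, synapses are few, and many of these genes are known to climb in the weeks that follow.

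In the deposited table the log2 values of each gene have a median of 0 over the 6 arrays, so a value tells how one array stands against the others for that gene and nothing about the level of the gene. Differences are Tdp2Δ1-3 minus wild-type on this log2 scale, with the moderated standard error (SE) of limma. A gene was called where limma's p, adjusted by Benjamini-Hochberg over 23410 values that name a gene, was under 0.05. With 3 brains of each genotype, limma's p sets a difference against the spread between brains of a genotype, moderated over all values tested. Tdp2 itself stood at -1.05, -0.90 and -0.94 in the Tdp2Δ1-3 brains, against 0.90, 1.10 and 1.34 in the wild-type brains, a difference of -2.07 ± 0.10 (SE) or 4.21-fold lower (limma, adjusted p = 0.00035).

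The arrays were not alike in the sex-linked genes. Xist, the RNA that silences an X chromosome in females, had values of -0.028, 1.17 and 6.27 in the Tdp2Δ1-3 brains, against 0.0016, -0.0016 and -0.085 in the wild-type brains. Eif2s3y, a Y-linked gene, had values of -0.036, 0.19 and -4.32 in the Tdp2Δ1-3 brains, against -0.042, 0.20 and 0.036 in the wild-type brains, and Kdm5d and Uty, also Y-linked, were at -2.84 and -3.30 in Tdp2Δ1-3 replicate 3. That array stood apart from the other 5 in all 4 genes. Sex is not labelled and its part in the results was not tested. Among the members, Syn1 and Syp lie on the X chromosome, and their values without that array are given below.

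Wherever a gene of the release machinery was called, it was lower in the Tdp2Δ1-3 brains. Of the 43 genes measured, 23 were called lower and 0 higher, against 4.13% of all values tested that were called lower and 2.34% called higher. The share among the members was 53.5%. At an unadjusted p under 0.05 the counts were 32 lower and 0 higher, but the share of all values at that limit was not counted. The difference was negative in 41 of the 43, with a median of -0.32, where the median over all values tested was 0.01. The changes were small, since 2 members, Sv2b and Syn1, also passed a 1.5-fold limit downward, against 0.453% of all values, and 0 upward, against 0.188%. In 32 members the highest mutant brain was below the lowest wild-type brain, which held for 12.6% of all values. In 0 members did the mutant brains all lie above the wild-type brains, against 13.1% of all values. In tissue homogenate, fewer neurons and less of these transcripts per neuron cannot be told apart.

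**Figure D1:**
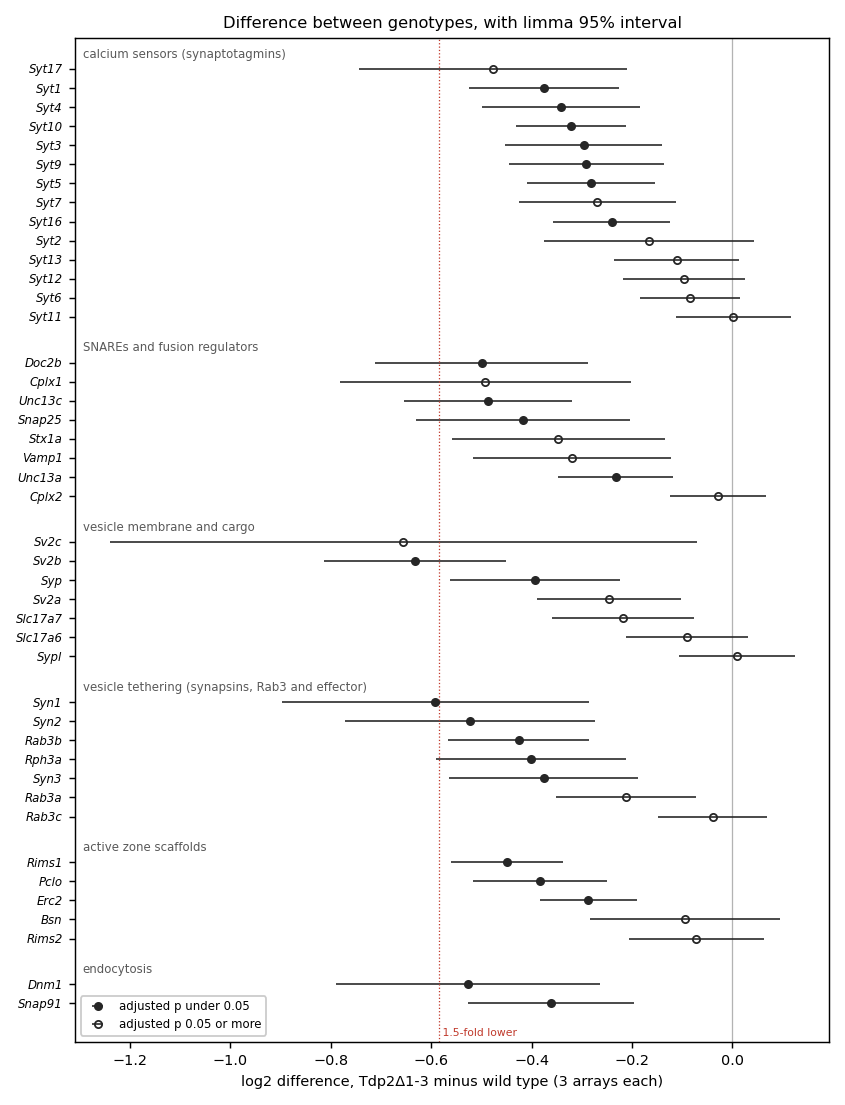
Difference in log2 value, Tdp2Δ1-3 minus wild-type, of the 43 measured members, ordered by role, with points for the difference (filled where called), a dotted line at 1.5-fold lower and bars for limma's 95% interval (3 brains each). The 23 called members all lie left of 0, from -0.63 in Sv2b to -0.23 in Unc13a, and the 20 members not called run from -0.66 in Sv2c to 0.01 in Sypl.

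Promoter sequences of RefSeq (GRCm38.p6) were found for 33 of the 43 members, 46 promoters in all, and the 250 bases before each start were searched on both strands. Since several neuronal vesicle genes are known targets of the repressor REST, the search was for its RE1 element, written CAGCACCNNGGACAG, with up to 2 mismatches among its 13 fixed bases. It was found in 4 promoters of members (8.7%), those of Syn1, Rph3a, Syt2 and Syt6, against 1.49% of 32851 promoters. Of these genes, Syn1 and Rph3a were called lower and Syt2 and Syt6 were not, and the share was 8.0% of 25 promoters of called members and 9.52% of 21 promoters of the others. The cyclic AMP response element TGACGTCA was in 1 promoter, that of Syn1 (2.17%, against 1.55% of all). GC boxes, GGGCGG, were in 65.2% of member promoters, against 32.7% of all, and may overlap other elements. The promoter holds a median of 13 CpG in members, against 6 in all. A match describes the letters of this window only.

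The 4 promoters with an RE1 match are shown with the match in capitals (and in Syn1 the cyclic AMP response element), together with that of Rims1, the member called with any array left out, in which the capitals are GC boxes. Syn1 is at chrX:20920919-20921168 on the minus strand, with the match starting 230 bases before the start with 1 mismatch and the response element 159 bases before it. Rph3a is at chr5:121009539-121009788 on the minus strand, with a match on the opposite strand 92 bases before the start and 1 mismatch. Syt2 is at chr1:134646362-134646611 on the plus strand, with a match 122 bases before the start and 2 mismatches. Syt6 is at chr3:103575876-103576125 on the plus strand, with a match on the opposite strand 240 bases before the start and 2 mismatches. Rims1 is at chr1:22806159-22806408 on the minus strand, with 2 GC boxes and no RE1 match.
Syn1: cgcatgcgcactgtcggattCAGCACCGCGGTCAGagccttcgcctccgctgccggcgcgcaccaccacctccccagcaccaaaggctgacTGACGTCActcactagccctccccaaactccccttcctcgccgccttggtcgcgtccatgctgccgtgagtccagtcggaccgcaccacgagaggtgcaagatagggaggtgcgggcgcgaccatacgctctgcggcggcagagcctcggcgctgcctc
Rph3a: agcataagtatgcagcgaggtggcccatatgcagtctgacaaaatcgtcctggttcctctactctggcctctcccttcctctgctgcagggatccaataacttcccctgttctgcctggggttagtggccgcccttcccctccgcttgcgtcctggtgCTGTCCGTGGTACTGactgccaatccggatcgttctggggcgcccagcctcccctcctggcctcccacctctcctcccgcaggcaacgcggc
Syt2: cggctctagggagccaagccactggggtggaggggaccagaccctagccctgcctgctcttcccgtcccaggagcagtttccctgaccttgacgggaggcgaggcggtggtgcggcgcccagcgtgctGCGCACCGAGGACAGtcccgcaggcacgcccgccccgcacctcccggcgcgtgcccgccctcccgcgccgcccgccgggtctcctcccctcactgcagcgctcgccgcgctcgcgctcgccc
Syt6: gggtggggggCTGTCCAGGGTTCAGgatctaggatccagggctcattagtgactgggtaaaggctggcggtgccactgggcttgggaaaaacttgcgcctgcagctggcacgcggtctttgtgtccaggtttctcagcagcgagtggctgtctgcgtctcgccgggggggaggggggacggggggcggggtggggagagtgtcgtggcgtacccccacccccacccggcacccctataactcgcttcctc
Rims1: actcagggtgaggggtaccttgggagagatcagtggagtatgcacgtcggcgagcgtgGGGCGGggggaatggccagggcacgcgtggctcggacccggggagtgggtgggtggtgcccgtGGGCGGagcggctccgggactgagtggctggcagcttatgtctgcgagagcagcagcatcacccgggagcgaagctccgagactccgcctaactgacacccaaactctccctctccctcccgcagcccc

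Synaptotagmins have paired C2 domains, which bind calcium in some of these proteins. Among the 14 measured, 7 were called lower and 0 higher, with a median difference of -0.28. Of the 8 known to bind calcium (Syt1, Syt2, Syt3, Syt5, Syt6, Syt7, Syt9 and Syt10), 5 were called. Of the 6 others, Syt4 and Syt16 were. Syt1, the calcium sensor of fast release in forebrain neurons, had values of -0.11, -0.19 and -0.34 in the Tdp2Δ1-3 brains, against 0.23, 0.15 and 0.11 in the wild-type brains. The mutant brains all lay below the wild-type brains, and Syt1 was 1.30-fold lower (difference -0.38 ± 0.065 (SE), limma adjusted p = 0.0176). Syt2, the sensor of many fast synapses of the brain stem and spinal cord, had values of 0.055, -0.091 and -0.29 in the Tdp2Δ1-3 brains, against 0.11, 0.11 and -0.055 in the wild-type brains. Here the groups overlapped, as the first mutant brain was above the third wild-type brain, and the difference of -0.17 ± 0.091 (SE) did not pass (limma adjusted p = 0.348, interval -0.38 to 0.043).

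Syt10, a sensor that in olfactory bulb neurons serves the secretion of a growth factor, had the smallest adjusted p of the synaptotagmins. Its values were -0.12, -0.24 and -0.18 in the Tdp2Δ1-3 brains, against 0.13, 0.17 and 0.12 in the wild-type brains. Each mutant brain was below each wild-type brain, with a difference of -0.32 ± 0.048 (SE) (limma adjusted p = 0.0112). Syt9, a further sensor of fast release, differed by -0.29 ± 0.067 (SE) (limma adjusted p = 0.0433). Syt5, a vesicle relative of Syt1 and Syt9, differed by -0.28 ± 0.055 (SE) (limma adjusted p = 0.0265). Syt3, which acts in receptor traffic and in slower phases of release, differed by -0.30 ± 0.067 (SE) (limma adjusted p = 0.0422). In all 3 genes the groups did not overlap. With cyclic loess between arrays Syt3 was at -0.15 and not called (limma adjusted p = 0.112). Syt7, the high-affinity sensor of facilitation and asynchronous release, had a difference of -0.27 ± 0.068 (SE) with groups apart and missed the limit (limma adjusted p = 0.0565), and Syt6 had one of -0.085 ± 0.043 (SE) (limma adjusted p = 0.315).

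Syt4 and Syt11 are close relatives in which a substitution weakens the binding of calcium. Syt4 had values of -0.088, -0.20 and -0.35 in the Tdp2Δ1-3 brains, against 0.16, 0.14 and 0.088 in the wild-type brains, all mutant brains below all wild-type brains (difference -0.34 ± 0.068 (SE), limma adjusted p = 0.0276). Syt11 had values of 0.039, 0.023 and -0.092 in the Tdp2Δ1-3 brains, against 0.019, -0.019 and -0.036 in the wild-type brains, with the genotypes intermixed around 0 (difference 0.0019 ± 0.050 (SE), limma adjusted p = 0.99). Differences between relatives within each brain are given here and below as descriptions, with no test. Of 14 such pairs, chosen after their values were seen, 9 had genotypes that did not overlap and 5 had genotypes that did. The share among other pairs of genes was not counted, so these counts are no result about the members. Where a called member is set against a relative that was not called, the gap largely restates the call. Syt4 minus Syt11 was -0.13, -0.22 and -0.26 in the Tdp2Δ1-3 brains, against 0.14, 0.16 and 0.12 in the wild-type brains, without overlap. Syt16, a synaptotagmin with no transmembrane segment, was called at -0.24 ± 0.050 (SE) (limma adjusted p = 0.0318). Syt17 was low in 1 mutant brain above all, with values of -0.10, -0.18 and -0.51 in the Tdp2Δ1-3 brains, against 0.38, 0.15 and 0.10 in the wild-type brains, and a difference of -0.48 ± 0.12 (SE) that was just short of the limit (limma adjusted p = 0.051). It was called without Tdp2Δ1-3 replicate 1, with cyclic loess, equal array medians or array weights, over rows naming 1 gene and by the mean of a gene's rows (limma adjusted p from 0.00984 to 0.0484). Syt12 (-0.096, limma adjusted p = 0.349) and Syt13 (-0.11, limma adjusted p = 0.29) overlapped between genotypes. The count of 7 synaptotagmins was 9 without Tdp2Δ1-3 replicate 1, 0 without Tdp2Δ1-3 replicate 2, 2 without Tdp2Δ1-3 replicate 3, 1 when wild-type replicate 1 was left out, 0 without wild-type replicate 2 and 3 once wild-type replicate 3 was left out.

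Of 8 SNAREs and fusion regulators, 4 were called lower and 0 higher (median difference -0.38). Snap25, the plasma membrane SNARE that gives the complex a pair of helices, had values of -0.056, -0.33 and -0.35 in the Tdp2Δ1-3 brains, against 0.30, 0.16 and 0.056 in the wild-type brains. The groups did not overlap, though the first mutant brain lay near the third wild-type brain, and Snap25 was 1.33-fold lower (difference -0.42 ± 0.092 (SE), limma adjusted p = 0.0384). Its partners did not pass the test. Stx1a, the syntaxin of the plasma membrane, differed by -0.35 ± 0.092 (SE) (limma adjusted p = 0.0669), and Vamp1, the synaptobrevin that dominates in brain stem and spinal cord, by -0.32 ± 0.085 (SE) (limma adjusted p = 0.0679). In both genes the mutant brains were all below the wild-type brains.

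The complexins, small proteins that clamp and then help the assembled SNAREs, were not called. Cplx1 had values of -0.037, -0.39 and -0.55 in the Tdp2Δ1-3 brains, against 0.30, 0.17 and 0.037 in the wild-type brains. Its groups were apart by a narrow gap, 2 of the 3 mutant brains were far lower, and the difference of -0.49 ± 0.13 (SE) missed the limit (limma adjusted p = 0.0589). Cplx2 had values of -0.021, 0.0022 and -0.0065 in the Tdp2Δ1-3 brains, against 0.0028, -0.0022 and 0.060 in the wild-type brains, the tightest of all members, with a difference of -0.029 ± 0.041 (SE) (limma adjusted p = 0.767, interval -0.12 to 0.067). Cplx1 minus Cplx2 per brain overlapped between genotypes, at -0.016, -0.39 and -0.54 in the Tdp2Δ1-3 brains, against 0.29, 0.17 and -0.022 in the wild-type brains.

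The Munc13 proteins open syntaxin and prime vesicles for fusion. Unc13c, known above all from cerebellar granule cells, had values of -0.18, -0.17 and -0.31 in the Tdp2Δ1-3 brains, against 0.21, 0.41 and 0.17 in the wild-type brains. All mutant brains were below all wild-type brains, with a difference of -0.49 ± 0.072 (SE) (limma adjusted p = 0.0113). Of its 7 values on the array, 5 were called lower, from -0.52 to -0.30, and 2 were near -0.09 and not called. Unc13a, the main isoform of glutamatergic synapses, differed by -0.23 ± 0.049 (SE) (limma adjusted p = 0.0338), on the value annotated to most transcripts. Its other values, at 0.01 and -0.16, were not called, so the call of Unc13a rests on 1 of 3 values. Doc2b, a cytosolic calcium sensor of spontaneous release, had values of -0.13, -0.30 and -0.40 in the Tdp2Δ1-3 brains, against 0.15, 0.13 and 0.40 in the wild-type brains, all mutant brains below all wild-type brains (difference -0.50 ± 0.092 (SE), 1.41-fold, limma adjusted p = 0.0211). The count of 4 in this group was 6 without Tdp2Δ1-3 replicate 1, 0 without Tdp2Δ1-3 replicate 2, 1 without Tdp2Δ1-3 replicate 3, 2 when wild-type replicate 1 was left out, 1 without wild-type replicate 2 and 5 once wild-type replicate 3 was left out.

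Of 7 proteins of the vesicle membrane and its cargo, 2 were called lower and 0 higher. The SV2 glycoproteins are carried by all synaptic vesicles and bind synaptotagmin. Sv2b had values of -0.20, -0.42 and -0.42 in the Tdp2Δ1-3 brains, against 0.41, 0.26 and 0.20 in the wild-type brains. The gap between genotypes was the widest among the members, and Sv2b was 1.55-fold lower (difference -0.63 ± 0.079 (SE), limma adjusted p = 0.00749). Sv2a, the isoform found at nearly all synapses, differed by -0.25 ± 0.062 (SE) with groups apart (limma adjusted p = 0.0572). Sv2c, which in adults is concentrated in basal ganglia and midbrain, had values of 0.12, -0.45 and -0.89 in the Tdp2Δ1-3 brains, against 0.55, 0.32 and -0.12 in the wild-type brains. It had both the largest difference of the list, -0.66 ± 0.25 (SE), and the widest spread, with the first mutant brain above the third wild-type brain, and was not called (limma adjusted p = 0.179). Sv2b minus Sv2a was -0.16, -0.23 and -0.23 in the Tdp2Δ1-3 brains, against 0.22, 0.16 and 0.16 in the wild-type brains, without overlap. Sv2b minus Sv2c was -0.32, 0.031 and 0.47 in the Tdp2Δ1-3 brains, against -0.14, -0.061 and 0.32 in the wild-type brains, with overlap.

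Syp, synaptophysin, an abundant vesicle protein that binds synaptobrevin, had values of -0.11, -0.29 and -0.42 in the Tdp2Δ1-3 brains, against 0.13, 0.11 and 0.12 in the wild-type brains. The wild-type brains were nearly identical, and the mutant brains were all lower by amounts that varied (difference -0.39 ± 0.073 (SE), limma adjusted p = 0.0222). Its relative Sypl, which is found in many tissues besides brain, had values of -0.074, 0.063 and -0.0012 in the Tdp2Δ1-3 brains, against -0.056, 0.016 and 0.0012 in the wild-type brains, intermixed between genotypes (difference 0.0092 ± 0.050 (SE), limma adjusted p = 0.95). The vesicular glutamate transporters were not called. Slc17a7, which prevails in cortex and hippocampus, differed by -0.22 ± 0.061 (SE) with groups apart (limma adjusted p = 0.0779), and Slc17a6, which prevails in thalamus, midbrain and brain stem, by -0.090 ± 0.052 (SE) with overlap (limma adjusted p = 0.38). Without Tdp2Δ1-3 replicate 3, the array that stood apart in sex-linked genes, X-linked Syp was at -0.32 and no longer called (limma adjusted p = 0.0522). That loss was not particular to this array. The call was also lost without each wild-type array and without Tdp2Δ1-3 replicate 2 (limma adjusted p from 0.0537 to 0.107). With cyclic loess Syp was at -0.15 and not called either (limma adjusted p = 0.0562). The count of 2 in this group was 4 without Tdp2Δ1-3 replicate 1, 0 without Tdp2Δ1-3 replicate 2 and 1 without each of the other 4 arrays.

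Of 7 genes that tether vesicles, namely the synapsins, the Rab3 GTPases and the effector rabphilin, 5 were called lower and 0 higher, with a median difference of -0.40. Syn1 had values of -0.11, -0.50 and -0.71 in the Tdp2Δ1-3 brains, against 0.21, 0.14 and 0.11 in the wild-type brains. The mutant brains were all lower but far apart, and Syn1 was 1.51-fold lower (difference -0.59 ± 0.13 (SE), limma adjusted p = 0.0395). Without Tdp2Δ1-3 replicate 3, X-linked Syn1 was at -0.46 and not called (limma adjusted p = 0.0824). Its call was also lost without each wild-type array and without Tdp2Δ1-3 replicate 2 (limma adjusted p from 0.077 to 0.16). With cyclic loess between arrays Syn1 was at -0.01 (limma adjusted p = 0.946). Syn2 had values of -0.082, -0.43 and -0.50 in the Tdp2Δ1-3 brains, against 0.29, 0.19 and 0.082 in the wild-type brains, likewise with mutant replicates 2 and 3 far below replicate 1 (difference -0.52 ± 0.11 (SE), limma adjusted p = 0.0307). With cyclic loess its difference was -0.29 and still called. Syn3, the synapsin that appears earliest in developing neurons, differed by -0.38 ± 0.082 (SE) (limma adjusted p = 0.0359). All 3 synapsins had every mutant brain below every wild-type brain.

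Rab3 GTPases sit on the vesicle and bind the active zone through RIM proteins. Rab3b had values of -0.13, -0.27 and -0.26 in the Tdp2Δ1-3 brains, against 0.29, 0.13 and 0.19 in the wild-type brains, with groups clearly apart (difference -0.43 ± 0.061 (SE), 1.34-fold, limma adjusted p = 0.0106). Rab3a, the most abundant Rab3 of adult brain, differed by -0.21 ± 0.061 (SE) with groups apart but was not called (limma adjusted p = 0.0829). Rab3c had values of 0.038, -0.025 and -0.079 in the Tdp2Δ1-3 brains, against -0.0031, 0.051 and 0.0031 in the wild-type brains, mixed between genotypes (difference -0.039 ± 0.047 (SE), limma adjusted p = 0.71). Rab3b minus Rab3c was -0.17, -0.24 and -0.18 in the Tdp2Δ1-3 brains, against 0.30, 0.078 and 0.19 in the wild-type brains, without overlap. Rph3a, rabphilin, which binds Rab3 and phospholipids, was called at -0.40 ± 0.082 (SE) (limma adjusted p = 0.0296). The count of 5 in this group was 6 without Tdp2Δ1-3 replicate 1, 0 without Tdp2Δ1-3 replicate 2, 4 without wild-type replicate 3 and 1 without each of the other 3 arrays.

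**Figure D2:**
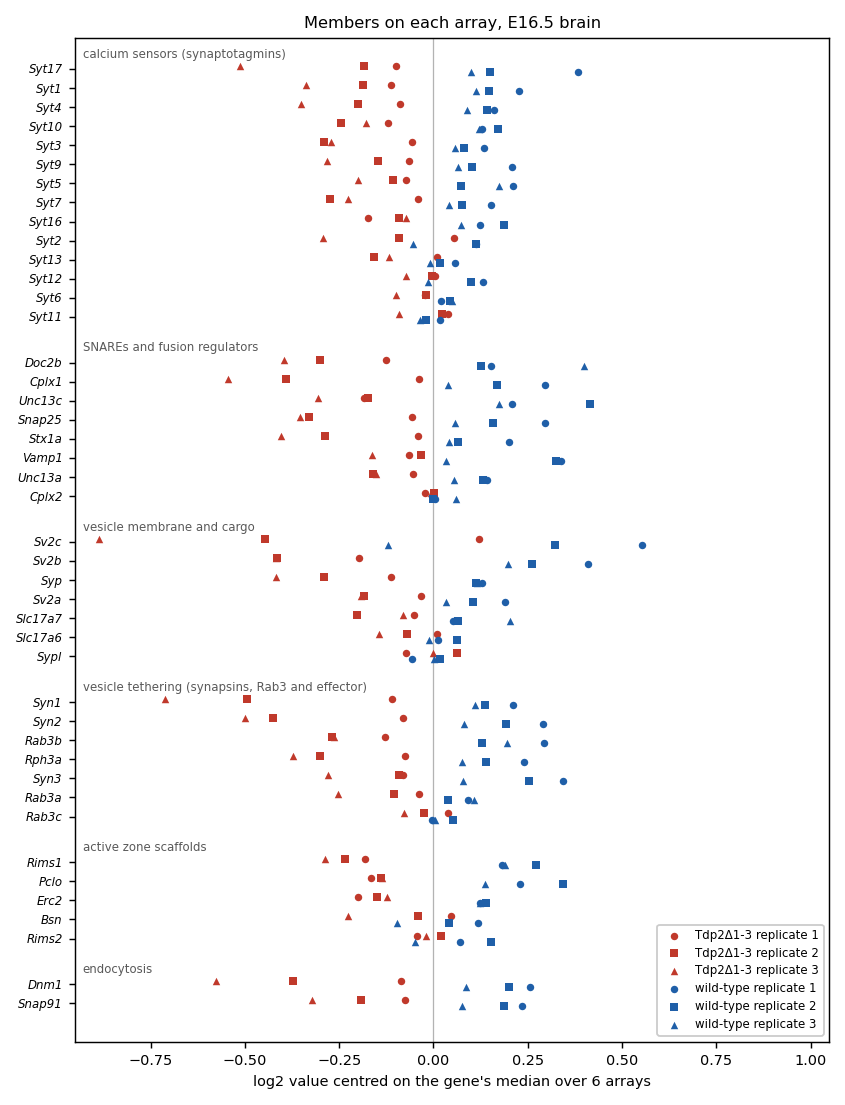
Log2 value relative to the gene's median over the 6 arrays for the 43 measured members, ordered by role, with 1 point per brain (Tdp2Δ1-3 in red and wild-type in blue, 3 each). In all 23 called genes the Tdp2Δ1-3 points lie below the wild-type points, with a narrow gap in Snap25 and a wide one in Sv2b.

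Of 5 scaffolds of the active zone, 3 were called lower and 0 higher. Rims1, which links Rab3, Munc13 and calcium channels, had values of -0.18, -0.23 and -0.29 in the Tdp2Δ1-3 brains, against 0.18, 0.27 and 0.19 in the wild-type brains. Each mutant brain was well below each wild-type brain, with little spread within either genotype, and the difference was -0.45 ± 0.048 (SE) or 1.37-fold (limma adjusted p = 0.00522). Rims1 had the smallest adjusted p of all members, and it was the only member called whichever array was left out, with differences from -0.48 to -0.42. Its relative Rims2 had values of -0.043, 0.021 and -0.021 in the Tdp2Δ1-3 brains, against 0.070, 0.15 and -0.049 in the wild-type brains, with overlap between genotypes (difference -0.072 ± 0.058 (SE), limma adjusted p = 0.546). Rims1 minus Rims2 was -0.14, -0.26 and -0.27 in the Tdp2Δ1-3 brains, against 0.11, 0.12 and 0.24 in the wild-type brains, without overlap.

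Piccolo and bassoon are giant relatives that arrive early at a forming synapse. Pclo had values of -0.16, -0.14 and -0.14 in the Tdp2Δ1-3 brains, against 0.23, 0.34 and 0.14 in the wild-type brains. The mutant brains were almost equal and all below the wild-type brains (difference -0.38 ± 0.057 (SE), limma adjusted p = 0.0115). Bsn had values of 0.047, -0.042 and -0.23 in the Tdp2Δ1-3 brains, against 0.12, 0.042 and -0.098 in the wild-type brains, with wide overlap (difference -0.095 ± 0.082 (SE), limma adjusted p = 0.582). Erc2, a coiled-coil scaffold that binds RIM and piccolo, had values of -0.20, -0.15 and -0.12 in the Tdp2Δ1-3 brains, against 0.12, 0.14 and 0.12 in the wild-type brains, tight in both genotypes and apart (difference -0.29 ± 0.042 (SE), limma adjusted p = 0.0112). The count of 3 scaffolds was 1 without Tdp2Δ1-3 replicate 2, 2 without wild-type replicate 2 and 3 without each of the other 4 arrays.

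Both endocytic members were called lower. Dnm1, the neuronal dynamin that cuts vesicles from the plasma membrane, had values of -0.086, -0.37 and -0.58 in the Tdp2Δ1-3 brains, against 0.26, 0.20 and 0.086 in the wild-type brains. The third mutant brain was lowest by far, and Dnm1 was 1.44-fold lower (difference -0.53 ± 0.11 (SE), limma adjusted p = 0.0355). With cyclic loess its difference was -0.26 and still called. Snap91, the neuronal clathrin adaptor of vesicle recovery, differed by -0.36 ± 0.072 (SE) (limma adjusted p = 0.0273), with every mutant brain below every wild-type brain. The count of 2 was 2 without Tdp2Δ1-3 replicate 1, 1 without wild-type replicate 3 and 0 without each of the other 4 arrays.

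The brains were not equally shifted. The median over the 43 members was -0.066, -0.18 and -0.26 in the Tdp2Δ1-3 brains, against 0.16, 0.13 and 0.073 in the wild-type brains. Tdp2Δ1-3 replicate 1 was the highest mutant brain in 34 of the 43 members and Tdp2Δ1-3 replicate 3 the lowest in 30. Among the wild-type brains, replicate 1 was the highest in 28 members and replicate 3 the lowest in 32. The spread was larger among the mutant brains in 31 of the 43. Since the values of a gene are centred on their median, the lowest wild-type brain and the highest mutant brain mirror each other around 0 wherever the groups do not overlap.

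How far the mutant brains lay from each other is given by role. In the active zone scaffolds the medians were -0.16, -0.14 and -0.14 in the Tdp2Δ1-3 brains, against 0.12, 0.15 and 0.12 in the wild-type brains, a mutant range of 0.028. In each mutant brain this median was the value of Pclo, so the range is that of 1 gene. Bsn, also a scaffold, ran from 0.047 to -0.23 in the mutant brains. In the SNAREs and fusion regulators the mutant range was 0.27, with medians of -0.056, -0.23 and -0.33 in the Tdp2Δ1-3 brains, against 0.20, 0.14 and 0.056 in the wild-type brains. In the endocytic pair it was 0.37. These ranges were not tested, and the lists differ in size.

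The number of calls depended on single arrays. Without Tdp2Δ1-3 replicate 2, 1 member, Rims1, was called lower, where 0.483% of all values were. Without wild-type replicate 2 it was 5, against 0.927% of all values. It was 8 without wild-type replicate 1 (1.95% of all values), 8 without Tdp2Δ1-3 replicate 3 (1.7%), 17 without wild-type replicate 3 (3.15%) and 30 without Tdp2Δ1-3 replicate 1 (7.0%). The same shares apply to the counts of genes called lower by role and by list with an array left out. Members with an unadjusted p under 0.05 and a lower value numbered 31 to 35 in these fits, again with no share of all values counted. The member median was between -0.35 and -0.27. Unc13c, Sv2b, Rab3b and Pclo lost the call without Tdp2Δ1-3 replicate 2 alone, and Syt10 and Erc2 without either replicate 2. Syt1 lost it without 3 of the arrays (wild-type replicates 1 and 2 and Tdp2Δ1-3 replicate 2), as did Doc2b (both replicates 2 and Tdp2Δ1-3 replicate 3). Syt16, Snap25, Unc13a, Syn2, Syn3, Rph3a and Snap91 lost it without wild-type replicate 1 or 2 or without Tdp2Δ1-3 replicate 2 or 3. Syt3, Syt4, Syt5, Syt9, Syp, Syn1 and Dnm1 lost it without any array but Tdp2Δ1-3 replicate 1. Conversely, Syt7, Syt17, Stx1a, Cplx1, Sv2a, Sv2c and Rab3a gained a call without Tdp2Δ1-3 replicate 1, where Sv2c was at -0.92 (limma adjusted p = 0.0322), and Vamp1 gained one without wild-type replicate 3. With cyclic loess Syt17, Vamp1 and Sv2a were called.

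**Figure D3:**
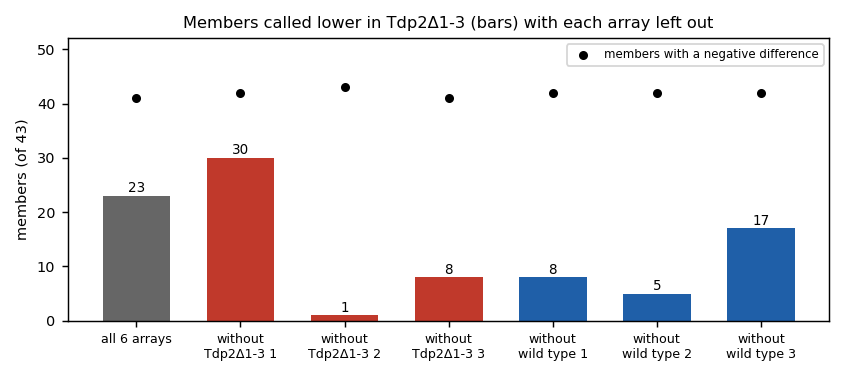
Number of the 43 members called lower (limma, adjusted p under 0.05) with all 6 arrays and with each array left out, as bars, and number with a negative difference, as points. The points lie between 41 and 43 in every setting. The count runs from 1 without Tdp2Δ1-3 replicate 2 to 30 without Tdp2Δ1-3 replicate 1, against 23 with all arrays.

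Further genes of the pathway, drawn from 4 lists, were lower too where they were called. Of 112 measured, 23 were called lower and 0 higher (20.5% lower), with a median difference of -0.13. Over all values tested, 4.13% were called lower and 2.34% higher, and the counts of each list below stand against these shares. Dnm3, the other dynamin of neurons, had the smallest adjusted p of them, with values of -0.19, -0.20 and -0.32 in the Tdp2Δ1-3 brains, against 0.22, 0.23 and 0.19 in the wild-type brains (difference -0.45 ± 0.050 (SE), limma adjusted p = 0.00545). It was called with any 1 array left out. In the vesicle recycling list 7 of 29 were called lower, among them Sh3gl2, endophilin, at -0.40 (limma adjusted p = 0.00983), Amph, amphiphysin, at -0.41 (limma adjusted p = 0.0202), and Sgip1, a neuronal endocytic protein that binds endophilin, at -0.25 (limma adjusted p = 0.0175). Dnm2, the dynamin of all tissues, was at -0.064 ± 0.066 (SE) and not called (limma adjusted p = 0.658). The count of 7 was between 1 without Tdp2Δ1-3 replicate 2 and 9 without Tdp2Δ1-3 replicate 1, and it was 4 without Tdp2Δ1-3 replicate 3, 3 when wild-type replicate 1 was left out and 2 without wild-type replicate 2.

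Of 21 active zone partners 6 were called lower. Apba1, an adaptor protein of the presynaptic terminal, was at -0.55 (limma adjusted p = 0.0264), and Rimbp2, which ties RIM to calcium channels, at -0.36 (limma adjusted p = 0.027). Ppfia2, a liprin that organizes the active zone, was at -0.30 (limma adjusted p = 0.0188), and Nrxn2, a neurexin, at -0.40 (limma adjusted p = 0.0293). The count of 6 was 11 without Tdp2Δ1-3 replicate 1, 4 without wild-type replicate 3 and 0 without each of the other 4 arrays.

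Of 32 further vesicle proteins and transporters 7 were called lower. Sncb, β-synuclein, was at -0.52 (limma adjusted p = 0.0327). Syngr1, a synaptogyrin, was at -0.34 (limma adjusted p = 0.0188), and Rab27b, a GTPase of secretory vesicles, at -0.26 (limma adjusted p = 0.0187). Atp6v1a, a subunit of the proton pump that drives transmitter loading, was at -0.22 (limma adjusted p = 0.0289). Slc32a1, which loads GABA and glycine into vesicles, was at -0.21 ± 0.064 (SE) (limma adjusted p = 0.101), Slc17a8, the third glutamate transporter, at 0.0036 ± 0.066 (SE) (limma adjusted p = 0.987), and Rab3d, mainly of secretory cells outside the brain, at -0.11 ± 0.065 (SE) (limma adjusted p = 0.416). None of these 3 was called. The count of 7 was 10 without Tdp2Δ1-3 replicate 1, 3 without wild-type replicate 3, 1 without Tdp2Δ1-3 replicate 3 and 0 without each of the other 3 arrays.

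Of 30 fusion partners 3 were called lower. They were Doc2a, the sister gene of Doc2b, at -0.44 (limma adjusted p = 0.00874), Stxbp5l, a tomosyn that holds SNAREs back, at -0.37 (limma adjusted p = 0.0112), and Napb, the brain form of an adaptor for SNARE disassembly, at -0.36 (limma adjusted p = 0.0271). Unc13b, the Munc13 shared with other tissues, was at 0.081 ± 0.058 (SE) and not called (limma adjusted p = 0.493). The median of this list was -0.06, nearest to that of all values among the 4 lists. The count of 3 was 6 without Tdp2Δ1-3 replicate 1, 0 without Tdp2Δ1-3 replicate 2 and 1 without wild-type replicate 2.

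Markers of several cell types of the dissection also differed between the genotypes, in lists of 8 to 24 genes. Over all values tested, 4.13% were called lower and 2.34% higher, so 1 or 2 calls in a short list are few. Of 20 pan-neuronal genes 3 were called lower and 0 higher, namely Mapt (-0.36, limma adjusted p = 0.0219), Gap43 (-0.22, limma adjusted p = 0.0298) and Ncam1 (-0.21, limma adjusted p = 0.0355). The difference was negative in 19 of the 20 and positive in 1, Elavl4, at 0.15 (limma adjusted p = 0.199). It was small in Tubb3 (-0.030), Dcx (-0.031) and Map2 (-0.040), which were not called. The median difference of the 20 genes was -0.20, with array medians of -0.028, -0.10 and -0.18 in the Tdp2Δ1-3 brains, against 0.11, 0.074 and 0.044 in the wild-type brains. The count of 3 was 9 without Tdp2Δ1-3 replicate 1, 3 without wild-type replicate 3 and 0 without each of the other 4 arrays. The member median less the pan-neuronal median was -0.038, -0.081 and -0.085 in the Tdp2Δ1-3 brains, against 0.051, 0.057 and 0.029 in the wild-type brains. This distance was lower in each mutant brain than in each wild-type brain, by a small amount that was not tested. Both lists were chosen with earlier results of these data known. The pan-neuronal genes differed from -0.53 to 0.15, so the distance depends on which genes are listed. All 24 genes of cycling cells were called higher, among them Ccna2 at 0.59, Kif11 at 0.74, Mki67 at 0.56 and Cenpf at 0.56, with a median difference of 0.56 and array medians of 0.19, 0.31 and 0.37 in the Tdp2Δ1-3 brains, against -0.45, -0.21 and -0.19 in the wild-type brains. Without Tdp2Δ1-3 replicate 2, 2 of the 24 were called, where 32 of all 23410 values were called higher. With any other array left out 17 to 24 were called, where 118 to 862 of all values were called higher.

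Astrocyte genes were lower in 6 of 12, among them Slc4a4 at -0.80, Aqp4 at -0.51, Sparcl1 at -0.65 and Bcan at -0.59, and higher in 1. The count of 6 was 7 without Tdp2Δ1-3 replicate 1, 0 without Tdp2Δ1-3 replicate 2, 1 without Tdp2Δ1-3 replicate 3, 1 when wild-type replicate 1 was left out, 0 without wild-type replicate 2 and 4 once wild-type replicate 3 was left out. Meningeal genes were lower in 3 of 10 (Ptgds at -1.19, Ogn at -0.54 and Slc6a13 at -0.43) and oligodendrocyte lineage genes in 2 of 9 (Pdgfra at -0.58 and Olig1 at -0.72). Endothelial and pericyte genes were lower in 2 of 12 (Cldn5 at -0.35 and Anpep at -0.40) and choroid plexus genes in 1 of 8 (Trpm3 at -0.31). Radial glial genes were higher in 3 of 14 and lower in 1 (Prom1 at 0.42, Tnc at -0.44, Nes at 0.49 and Vim at 0.20), and red cell genes were higher in 2 of 8 (Hbb-y at 3.79 and Hba-x at 1.44). Of the microglial genes 0 of 10 were called by limma. At an unadjusted limma p under 0.05 the count was 1 lower and 1 higher, with no share of all values counted at that limit. How far any of these cell types contributes to the values of the members was not tested. Because each gene is centred, presence or absence of a marker cannot be read from the values.

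**Figure D4:**
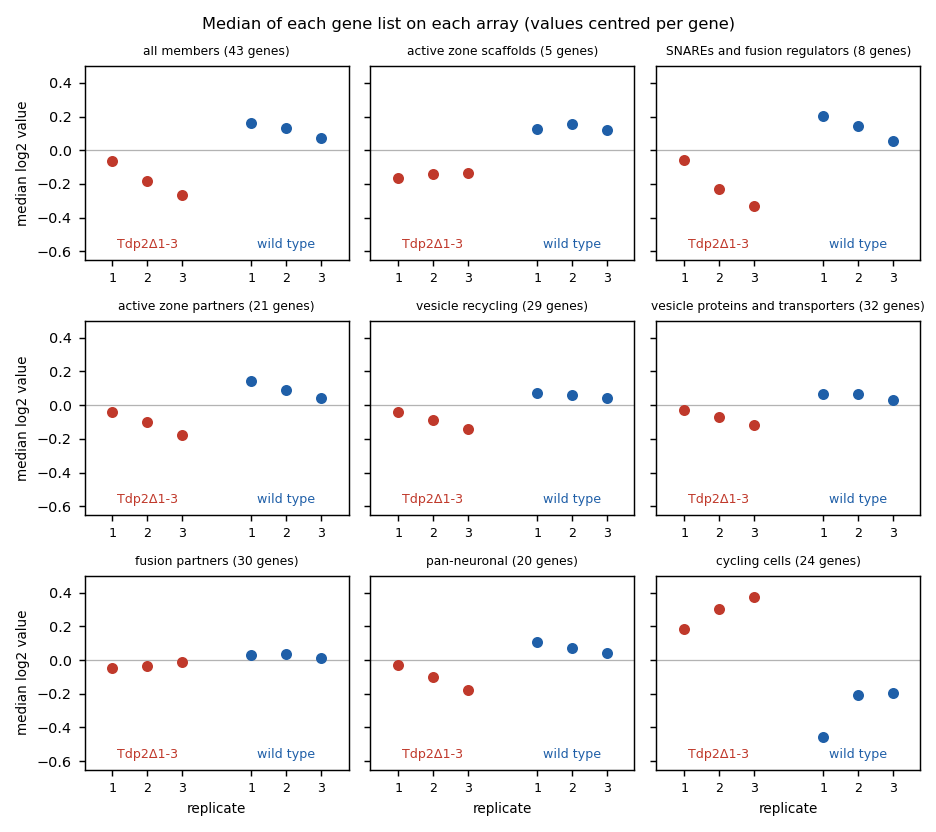
Median log2 value, relative to each gene's median over the arrays, of all members, of 2 member roles, of the 4 pathway lists and of the pan-neuronal and cycling cell markers in each brain (Tdp2Δ1-3 and wild-type, 3 each). Among the lists shown, the mutant medians lie closest together in the active zone scaffolds, at -0.16, -0.14 and -0.14, each of them the value of Pclo. The cycling cell genes run the other way, at 0.19, 0.31 and 0.37 in the Tdp2Δ1-3 brains.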

How the data were processed

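Total RNA of whole E16.5 mouse brains, 3 Tdp2Δ1-3 and 3 wild-type, was labelled and hybridised to Affymetrix Mouse Gene 1.0 ST arrays, per the labels' protocols. The deposited log2 values come from Robust Multi-Array Average (RMA), which the authors applied according to the series text. Affymetrix Expression Console is the tool in the submitters' processing notes, with no version. The table states no log base, and RMA gives log2. Every row is centred, with a median over its 6 values that departs from 0 by at most 5e-07, and the labels do not describe this step. Centring keeps differences between arrays and removes the level of a gene, so no filter on low values was possible. Neither the probe summary level nor the build behind the annotation is given in the sources used here.

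Of 28856 rows of the table, 21789 name 1 gene, 1621 name several and 5446 name none (18.9%), by the platform annotation. Current symbols were looked up by gene identifier in a RefSeq table (GRCm38.p6) that covered 21698 of the rows with 1 gene. The 23410 rows that name a gene were tested with limma 3.58.1 in R 4.3.3 (lmFit and eBayes, two-sided, Benjamini-Hochberg adjustment), with no covariate, and a call required an adjusted p under 0.05. The series text gives a 1.5-fold limit, used as a second call. Each gene was represented by its single-gene row with the most accessions. All members were named, with up to 4 called genes of smallest p in each other list and the relatives Unc13b, Dnm2, Dnm3, Slc17a8, Slc32a1 and Rab3d. The members and lists were chosen with earlier results of these data known, and the pairs of relatives set against each other were chosen after their values were seen. The number of arrays limits the precision. The limma fit was tried on simulated rows with independent noise and known changes. Those rows hold no shift shared by many genes of an array, so the trial does not bear on calls under such shifts. Figures were drawn with matplotlib 3.10.9. The alternatives comprised a block on replicate number, leaving out each array, other sets of rows, array medians set equal, cyclic loess, array weights, a robust variance prior and the mean of a gene's rows.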

Additional observations from a re-analysis of the deposited data

How the results depend on the processing

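No member was called higher under any alternative, and the median difference of the members lay between -0.35 and -0.26. The count of 23 members called lower (4.13% of all values) ranged from 1 to 30 when arrays were left out one at a time (0.483% to 7.0%). The count of 2 at 1.5-fold ranged from 0 to 6. With all 28856 rows tested, 17 members were called, of which 1 at 1.5-fold, where 2.78% of all rows were called lower. Syt3, Syt9, Snap25, Syn1, Syn3 and Dnm1 lost their calls there (limma adjusted p from 0.0516 to 0.0595). With cyclic loess the count was 23, of which 1 at 1.5-fold, where 4.88% of all values were called lower. Of these, 20 were shared with the 23 of the report, since Syt3, Syp and Syn1 lost their calls and Syt17, Vamp1 and Sv2a gained one. With array weights it was 33, but calls rose over the whole array too, to 11.9% of all values called lower. The other settings gave 23 or 24, with 4.12% to 4.64% of all values called lower. A second value of Unc13a had a difference of 0.011, with the opposite sign to the value reported (limma adjusted p = 0.957), and the cause was not tested. With the replicate number as a block, 30 members were called lower, 3 of them at 1.5-fold, where 6.39% of all values were called lower. Beside the 23 these were Syt7, Syt17, Stx1a, Vamp1, Cplx1, Sv2a and Sv2c (limma adjusted p from 0.00467 to 0.0211), and Sv2c, whose genotypes overlap, had the smallest of these p-values. The series text speaks of independent pairs of brains, but no label says that a replicate number marks a pair. The same-numbered arrays deviated together weakly, with correlations over rows of 0.21, 0.047 and 0.20. Arrays of unlike number ran from -0.22 (Tdp2Δ1-3 replicate 1 with wild-type replicate 3) to 0.057 (Tdp2Δ1-3 replicate 2 with wild-type replicate 3). Tdp2Δ1-3 replicates 1 and 3 thus correlated best with their own number, and Tdp2Δ1-3 replicate 2 did not. The member medians also fell from replicate 1 to replicate 3 in both genotypes. These values do not settle whether the numbers mark pairs, and the report did not take them as pairs. With 3 brains a genotype, a member not called is not shown to be equal between genotypes, and values centred on a median give no signal over background from which to judge weak probes.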
